A study of Homo sapiens with 18 samples.

Results

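The stretch of 1300 kb of chromosome 8 around MYC, from 128000000 to 129300000 in hg19 coordinates, was examined for accessible chromatin in T47D cells, a human breast cancer cell line with abundant progesterone receptor. It holds MYC (128748000 to 128754000), the neighbouring long non-coding RNA gene PVT1 (128807000 to 129113000), and a wide gene-poor interval before MYC. Every region of the deposited count table that overlapped this stretch was taken, without reference to its signal, which gave 123 of 132604 regions. All 123 passed the filter on low counts and were tested. The assay was Omni-ATAC-seq, in which the transposase Tn5 inserts adapters into open DNA, so that the read count of a region follows how open it is. The cells were first synchronized by serum starvation in medium without phenol red. For 6 h or 18 h they then received the synthetic progestin R5020, also called promegestone, at 0.1 nM or at 10 nM, with DMSO as the vehicle control, and were lifted off the plates with trypsin. This makes 6 groups of 3 libraries, 18 in all, and all of them come from 1 cell line. Whether same-group libraries stem from separate cultures is not stated, and the p-values rest on the spread among these libraries alone, part of which may be technical. Accessibility at marker genes of the line was not checked, since no hg19 gene annotation was used here.

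MYC encodes a transcription factor that drives growth and cell-cycle genes, and it is a long-known early target of progestins in breast cancer cells. PVT1 is transcribed from its own promoter beside MYC, is often co-amplified with it in tumours, and its gene body holds enhancers that can contact the MYC promoter. The interval before MYC is called a gene desert because it holds long non-coding RNAs but little coding sequence, and enhancers for MYC in several tissues lie in it. In the RefSeq order of genes (GRCh38.p14, used for names only), CCAT1, CCAT2, POU5F1B and CASC11 precede MYC, and PVT1 follows it directly. The comparisons below ask how far the 2 progestin doses and the 2 times differ in what they open or close here.

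With 10 nM R5020, the regions over the MYC start and the PVT1 start were without a call in the fit of all 18 libraries, though some alternative fits called each of them, and elements around them opened and closed. At 6 h, 30 of the 123 regions were higher and 7 lower than in vehicle (edgeR quasi-likelihood test, Benjamini-Hochberg adjusted p under 0.05 over all 132304 tested regions). Over all tested regions 25.1% were called, 16.7% higher and 8.42% lower, against 24.4% and 5.69% of the regions here. At 18 h, 23 were higher and 11 lower, which is 18.7% and 8.94% of the regions here beside a background of 20.4% called, 12.8% higher and 7.56% lower. The low dose moved few of them in this fit. With 0.1 nM, 1 region was higher and 1 lower at 6 h (background 1.19%, split into 0.949% and 0.241%). At 18 h, 3 were higher and 1 lower (background 2.44%, split into 1.74% and 0.698%). Other fits gave more gains with 0.1 nM at 18 h: 13 with replicate number as a block, 9 with a covariate described below and 7 with DESeq2. At an unadjusted p under 0.05 in the main test, 26 of the 123 passed for 0.1 nM at 18 h, beside 15283 of all 132304. The 7 losses at 6 h numbered 4 without 10 nM replicate 1 and 4 without 10 nM replicate 3. The 11 losses at 18 h numbered 4, 5 and 7 without vehicle replicate 1, 2 and 3, and 6 without 10 nM replicate 2. The 3 gains with 0.1 nM at 18 h came to 1 without 0.1 nM replicate 1 or vehicle replicate 1 or 2, and the 2 calls at 6 h each went without 0.1 nM replicate 1 or vehicle replicate 1 or 2.

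The median log2 difference of the 123 regions for 10 nM against vehicle was 0.28 at 6 h and 0.28 at 18 h, beside -0.05 and 0.01 over all tested regions. In the window of equal length directly before this one, 7 of 87 regions were higher and 9 lower at 6 h, and in the window directly after it 13 of 72 were higher and 2 lower. At 18 h those counts were 5 and 11 before, and 6 and 1 after. On the rest of chromosome 8, 13.9% of tested regions were higher with 10 nM at 6 h and 11.2% at 18 h. These shares are descriptions of neighbouring stretches, and their difference from the MYC window was not tested.

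**Figure D1:**
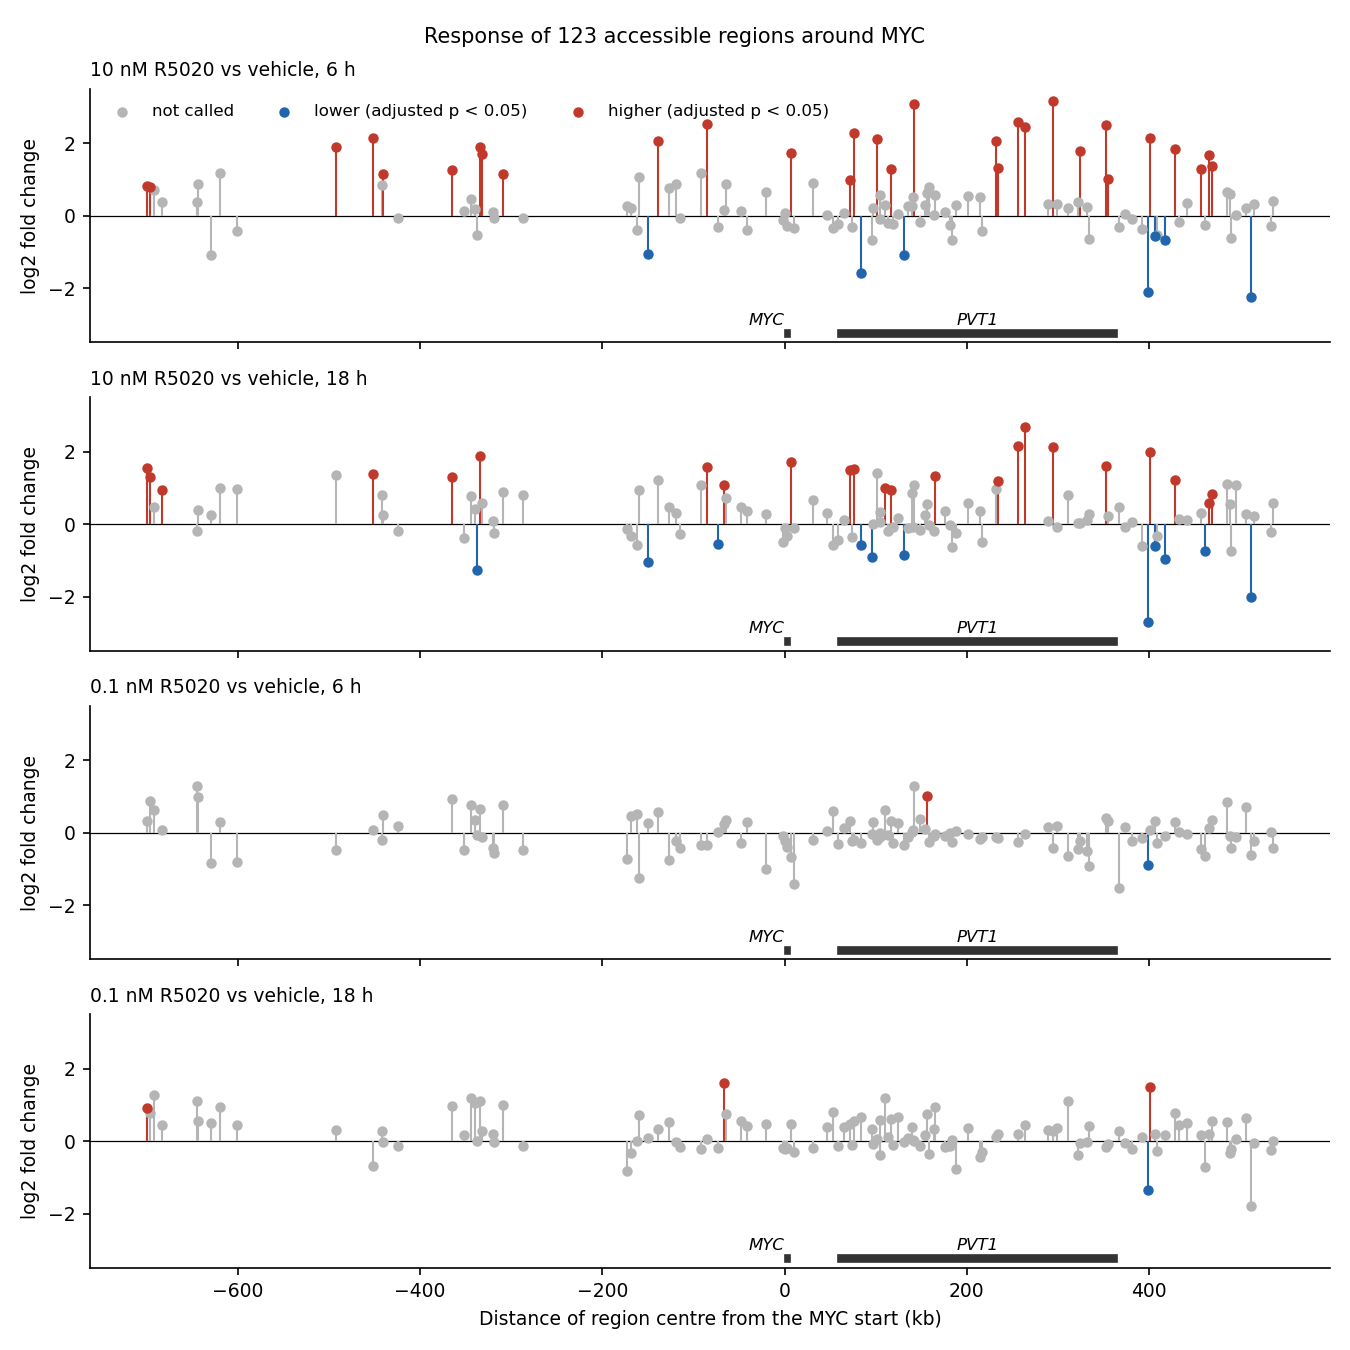
Each of the 123 regions is drawn at the distance of its centre from the MYC start (x axis, kb), with its log2 fold change against vehicle on the y axis, for both doses and both times; red and blue mark adjusted p under 0.05, and dark bars mark MYC and PVT1. Calls with 10 nM lie on both sides of MYC, with 30 higher and 7 lower at 6 h, while the 0.1 nM panels hold 1 and 1 at 6 h and 3 and 1 at 18 h.

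Counts in the 123 regions summed to between 8502 and 36341 per library, out of totals of 8756311 to 39984217. The share of a library's counts that fell in these regions was 0.0777% ± 0.00355 (SD, n = 3) in vehicle, 0.0792% ± 0.00827 with 0.1 nM and 0.102% ± 0.00281 with 10 nM at 6 h. At 18 h it was 0.082% ± 0.00415, 0.0951% ± 0.00494 and 0.0994% ± 0.00795. Another quantity moved with dose in the same libraries. The 5000 strongest regions of the table took 39.1% of counts in vehicle, 38.1% with 0.1 nM and 34.1% with 10 nM at 6 h, and 38.2%, 36.4% and 33.6% at 18 h. Replicate 1 of 10 nM at 18 h and replicate 1 of vehicle at 6 h lay farthest from their group means. Their root-mean-square log2 deviations were 0.666 and 0.557, and the next largest was 0.541, close to the latter. Without both of these replicate 1 libraries, 29 regions were higher and 6 lower with 10 nM at 6 h, and 22 and 9 at 18 h.

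The 123 regions had a median width of 436 bp and together covered 4.74% of the stretch. They were sparse in the desert before MYC, with 42 regions or 5.63 per 100 kb, and dense in PVT1, with 48 regions or 15.7 per 100 kb. A further 25 regions lay past PVT1 (13.4 per 100 kb), 4 within 2 kb of MYC and 4 between MYC and PVT1. Per kb of region, the vehicle level ran from 1.35 to 66.9 CPM (the region's counts as parts of 1000000 of a library's TMM-scaled total) with a median of 5.62. The highest level, 66.9 CPM per kb, was that of the 273 bp region centred 1.57 kb before the MYC start (128746290 to 128746563). The next 4 all lay in PVT1, at 217 kb (62.3 CPM per kb), 135 kb (48.3), 214 kb (47.9) and 124 kb (43.6) after the MYC start. None of these 5 was called for either dose against vehicle at either time in the fit of all 18 libraries.

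The region over the MYC start (128747520 to 128748806, 1286 bp) was among the most open, at 34.1 CPM per kb in vehicle and in position 8 of the 123. In vehicle at 6 h its 3 libraries held 52.9, 50.2 and 35.9 CPM, with 0.1 nM 42.6, 37.9 and 38.9, and with 10 nM 47.0, 50.7 and 48.0. At 18 h they held 43.0, 42.0 and 38.8 in vehicle, 42.7, 38.2 and 26.3 with 0.1 nM, and 45.6, 36.3 and 32.5 with 10 nM. Each treated group overlapped its vehicle group. The log2 difference of 10 nM from vehicle was 0.07 (SE 0.21, adjusted p = 0.853, 95% interval -0.38 to 0.51) at 6 h and -0.11 (adjusted p = 0.749, 95% interval -0.56 to 0.34) at 18 h. For 0.1 nM it was -0.22 (adjusted p = 0.923, 95% interval -0.67 to 0.23) and -0.20 (adjusted p = 0.833, 95% interval -0.65 to 0.24). The 2 doses differed by 0.29 (adjusted p = 0.39) at 6 h and 0.09 (adjusted p = 0.872) at 18 h.

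In every group but 10 nM at 6 h, the level of this region went in the same order as the strongest-region share. For the CPM given above, the shares were 39.3%, 36.6% and 38.4% with 0.1 nM at 6 h. At 18 h they were 40.0%, 38.5% and 36.0% in vehicle and 39.6%, 36.6% and 33.0% with 0.1 nM. The vehicle libraries of 6 h with 52.9, 50.2 and 35.9 CPM had shares of 41.7%, 38.7% and 37.0%, and the 10 nM libraries of 18 h with 45.6, 36.3 and 32.5 CPM had 37.4%, 32.7% and 30.7%. In 10 nM at 6 h the order differed, with 34.6%, 34.3% and 33.5% beside 47.0, 50.7 and 48.0 CPM. With that share as a covariate, the 10 nM difference at 6 h became 0.49 (adjusted p = 0.00482) and the difference between doses 0.62 at 6 h (adjusted p = 0.000336) and 0.33 at 18 h (adjusted p = 0.0421). The difference at 18 h from vehicle became 0.24 (adjusted p = 0.136), and without 10 nM replicate 1 it was -0.26. When only the groups compared were fitted, the doses differed by 0.33 at 6 h (adjusted p = 0.0372). The share and the dose move together, so their parts in the level of the MYC start cannot be told apart.

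The region over the MYC body (128749311 to 128751023) held 48.5 ± 10.8 CPM in vehicle and 39.8 ± 4.25 with 10 nM at 6 h, and 42.4 ± 7.60 and 33.9 ± 3.45 at 18 h (SD, n = 3). Its 10 nM differences were -0.28 (adjusted p = 0.345) and -0.32 (adjusted p = 0.3), and with the covariate 10 nM lay above 0.1 nM at 6 h by 0.42 (adjusted p = 0.0198). The region 1.57 kb before the start held 19.1 ± 4.15 and 17.8 ± 1.42 CPM at 6 h and 17.4 ± 3.31 and 12.3 ± 5.28 at 18 h, without a call in the fit of all libraries (10 nM difference -0.10, adjusted p = 0.832, and -0.48, adjusted p = 0.262). This depended on the fit. With the strongest-region share as a covariate the region was higher with 10 nM at 6 h (0.69, adjusted p = 0.00226), and without 10 nM replicate 1 it was lower at 18 h (-0.91, adjusted p = 0.0282). The PVT1 start region (128806274 to 128808118) had 34.9 ± 4.10 CPM in vehicle and 30.0 ± 3.39 with 10 nM at 6 h, and 31.0 ± 4.12 and 22.8 ± 5.09 at 18 h. Its differences of -0.22 (adjusted p = 0.448) and -0.44 (adjusted p = 0.117) did not pass the test, though the latter did in 1 of 14 alternatives (adjusted p = 0.0213).

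A small region just past the MYC end (128755368 to 128755753) did respond. It lies 7.56 kb after the MYC start and held 1.37, 1.92 and 1.46 CPM in vehicle at 6 h, 0.591, 2.09 and 0.587 with 0.1 nM, and 6.37, 4.94 and 4.77 with 10 nM. At 18 h the values were 1.34, 1.59 and 2.00 in vehicle, 1.90, 2.63 and 2.43 with 0.1 nM, and 5.68, 6.46 and 4.10 with 10 nM. All 10 nM libraries lay above all vehicle and all 0.1 nM libraries of the same time. With 0.1 nM the difference from vehicle was -0.66 at 6 h (adjusted p = 0.743) and, without 0.1 nM replicate 2, -1.43 (adjusted p = 0.0406). The 10 nM rise was 1.73 on the log2 scale at both times (SE 0.37; adjusted p = 0.00157 at 6 h and 0.00178 at 18 h). The doses differed by 2.38 at 6 h (adjusted p = 0.000114) and by 1.24 at 18 h (adjusted p = 0.0299), and the call at 18 h was lost without any 1 of the 0.1 nM replicates or of 10 nM replicates 1 and 2 (adjusted p up to 0.146).

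**Figure D2:**
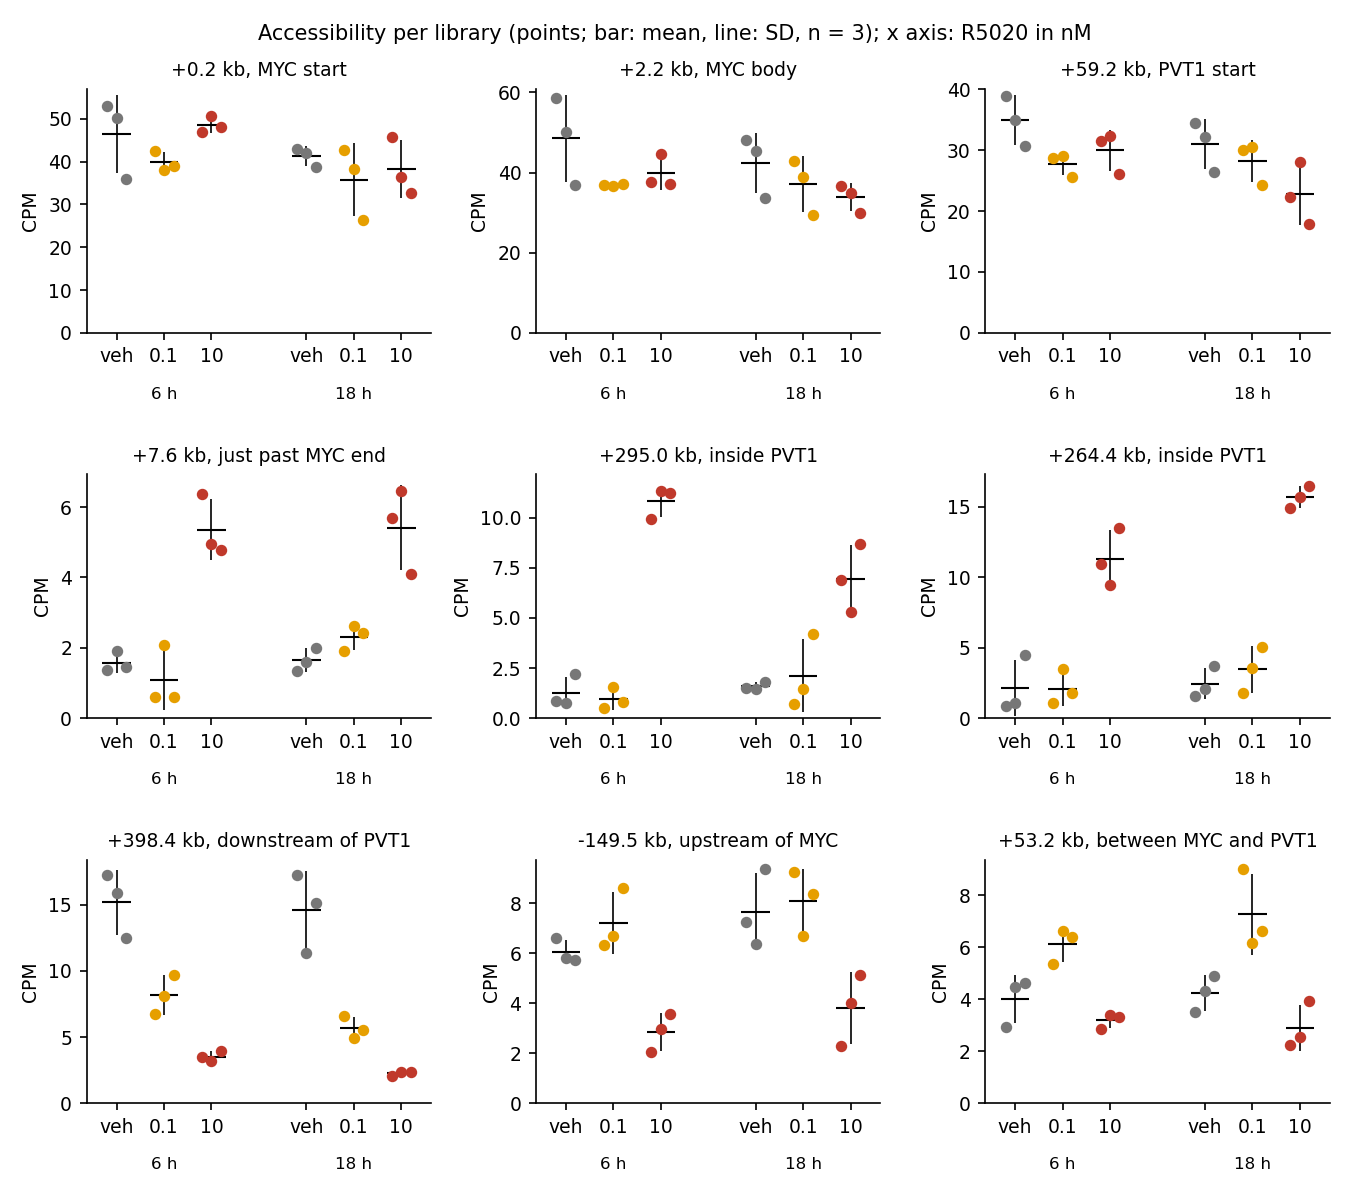
CPM of 9 regions in each library (points), with the mean (bar) and SD (line) of the 3 libraries per group; the x axis gives vehicle, 0.1 nM and 10 nM R5020 at 6 h and at 18 h. The groups overlap at the MYC start, where 10 nM gave 47.0 to 50.7 CPM at 6 h against 35.9 to 52.9 in vehicle. Just past the MYC end and at both PVT1 elements, the 10 nM libraries lie above the others of their time. Vehicle and 0.1 nM overlap there.

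Inside PVT1, 13 of 48 regions rose and 2 fell with 10 nM at 6 h, and 10 rose and 3 fell at 18 h. Over all tested regions, 16.7% were higher and 8.42% lower at 6 h, and 12.8% and 7.56% at 18 h. No part of the stretch was tested against that background. The summed CPM of the 48 regions was 398 to 480 in the vehicle libraries and 557 to 608 in the 10 nM libraries at 6 h, and 424 to 472 and 476 to 546 at 18 h. With 0.1 nM the sum was 401 to 498 at 6 h, which overlaps the vehicle range, and 448 to 535 at 18 h, which overlaps both others. The PVT1 total was higher with 10 nM than in any vehicle library of the same time, by a small margin at 18 h.

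The largest rise with 10 nM at 6 h was 3.15 on the log2 scale (SE 0.50, adjusted p = 7.81e-05), at 129042814 to 129043219, 295 kb after the MYC start. Its libraries held 0.840, 0.737 and 2.19 CPM in vehicle, 0.502, 1.55 and 0.807 with 0.1 nM, and 9.93, 11.3 and 11.2 with 10 nM. At 18 h they held 1.51, 1.44 and 1.83 in vehicle, 0.716, 1.45 and 4.18 with 0.1 nM, and 6.91, 5.32 and 8.67 with 10 nM, a rise of 2.13 (adjusted p = 0.00245). In vehicle the region was near the bottom of the levels (3.51 CPM per kb, position 102 of 123). The doses differed by 3.58 at 6 h (adjusted p = 2.7e-05) and by 1.84 at 18 h (adjusted p = 0.0143), and the 18 h call was lost without 0.1 nM replicate 1 or 2 (adjusted p up to 0.0914). A region near the PVT1 end that rose, at 129100653 to 129101407, had a higher base. It held 6.41, 6.41 and 6.23 CPM in vehicle, 8.95, 8.89 and 7.19 with 0.1 nM, and 37.1, 37.9 and 33.1 with 10 nM at 6 h. Its rise was 2.50 (SE 0.19, adjusted p = 3.33e-08) at 6 h and 1.61 (adjusted p = 2.91e-06) at 18 h, when the 10 nM libraries held 30.9, 21.0 and 21.4 CPM.

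Gains inside PVT1 were also found side by side. Runs of successive gains were not counted over all tested regions, so they are not shown to be particular to PVT1. Runs of 2 gains with 10 nM at 6 h also lay in the desert and past PVT1. From 128979711 to 129012658, a span of 32.9 kb, 4 successive regions were all higher with 10 nM at 6 h, by 2.08, 1.31, 2.59 and 2.44 on the log2 scale. At 18 h the last 3 of them were called (1.19, 2.17 and 2.69), and the first was at 0.98 (adjusted p = 0.0724). The last, at 129012077 to 129012658, was the largest rise of the 123 regions at 18 h (SE 0.48, adjusted p = 0.000386). It held 1.60, 2.06 and 3.71 CPM in vehicle, 1.75, 3.59 and 5.06 with 0.1 nM, and 15.0, 15.7 and 16.5 with 10 nM at that time. In the 100 kb bin that holds this run, 200 to 300 kb after the MYC start, 5 of 10 regions were higher at 6 h and 4 at 18 h. None was lower. With only 10 regions, this was not tested against the background of 16.7% higher at 6 h and 12.8% at 18 h.

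The region at 128823573 to 128824106, 75.8 kb after the MYC start, was higher with 10 nM at both times, with the larger difference at 6 h. It held 3.05, 3.43 and 4.61 CPM in vehicle and 18.6, 16.5 and 19.0 with 10 nM at 6 h, a rise of 2.29 (adjusted p = 4.14e-07). At 18 h it held 2.33, 2.21 and 2.65 in vehicle and 7.02, 5.48 and 8.02 with 10 nM, a rise of 1.51 (adjusted p = 7.1e-05). Within 10 nM it fell by 1.40 on the log2 scale from 6 h to 18 h (SE 0.21, adjusted p = 0.00196). The vehicle libraries also held less at 18 h, and the change in response between times did not pass the test for this region. A narrow region of 172 bp at 128890154 to 128890326 rose by 3.09 at 6 h (adjusted p = 0.000254) from 0, 0.295 and 0.486 CPM to 2.25, 2.23 and 2.78, and was at 1.09 (adjusted p = 0.11) at 18 h. Its vehicle level at 6 h was the lowest of the regions described.

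The losses inside PVT1 were at regions that were open in vehicle. The region at 128831619 to 128832459 held 19.7, 13.5 and 14.0 CPM in vehicle, 15.2, 11.4 and 12.3 with 0.1 nM and 5.34, 5.12 and 5.18 with 10 nM at 6 h. Its fall of 1.59 on the log2 scale (the fitted difference was -1.59, SE 0.20, adjusted p = 7.58e-06) was -0.59 at 18 h (adjusted p = 0.0435). At 18 h the 0.1 nM libraries held 18.4, 18.0 and 15.4 CPM, above 11.5, 10.8 and 10.3 in vehicle, but that difference of 0.67 did not pass the test (adjusted p = 0.0833), and 10 nM lay below 0.1 nM by -1.25 (adjusted p = 0.000332). The neighbouring region at 128843843 to 128844275 was lower with 10 nM at 18 h (-0.89, adjusted p = 0.0317) and not called at 6 h (-0.68, adjusted p = 0.0877). That call at 18 h was lost without vehicle replicate 1 or 2 or without 10 nM replicate 2 or 3 (adjusted p up to 0.158). The region at 128879316 to 128879516 fell by 1.08 at 6 h (the fitted difference was -1.08, adjusted p = 0.00584) and by 0.85 at 18 h (-0.85, adjusted p = 0.0326). Without 10 nM replicate 3 its adjusted p at 6 h was 0.0543.

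In the desert before MYC, 11 of 42 regions rose and 1 fell with 10 nM at 6 h, and 8 rose and 3 fell at 18 h. The background was 16.7% higher and 8.42% lower at 6 h, and 12.8% and 7.56% at 18 h. The nearest strong rise was 85.4 kb before the MYC start (128662327 to 128662776). It held 0.525, 0.405 and 1.13 CPM in vehicle, 0.236, 1.01 and 0.440 with 0.1 nM and 4.78, 3.21 and 3.60 with 10 nM at 6 h, a rise of 2.54 (adjusted p = 0.00208), and rose by 1.58 at 18 h (adjusted p = 0.0355). The region 335 kb before MYC (128413124 to 128413795) held 2.52, 2.21 and 3.16 CPM in vehicle, 4.22, 3.10 and 4.91 with 0.1 nM and 8.24, 6.90 and 13.8 with 10 nM at 6 h. Its rise with 10 nM was 1.90 (adjusted p = 0.000103) at 6 h and 1.88 (adjusted p = 0.000145) at 18 h. Its 0.1 nM values lay between those of the other groups, at 0.66 (adjusted p = 0.544) and 1.10 (adjusted p = 0.0666).

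A region 452 kb before MYC (128295560 to 128295926) rose with 10 nM by 2.15 at 6 h (adjusted p = 0.00155) and 1.38 at 18 h (adjusted p = 0.0284), from vehicle levels of 0.595 ± 0.0322 and 0.888 ± 0.356 CPM (SD, n = 3). The one loss in the desert at 6 h was 149 kb before MYC (128598225 to 128598779). It held 6.62, 5.82 and 5.75 CPM in vehicle, 6.32, 6.68 and 8.62 with 0.1 nM and 2.06, 2.98 and 3.57 with 10 nM. Its fitted difference was -1.06 at both times (adjusted p = 0.00629 at 6 h and 0.00807 at 18 h), and without 10 nM replicate 1 the adjusted p at 6 h was 0.0537. The 0.1 nM differences there were 0.25 (adjusted p = 0.944) at 6 h and 0.09 (adjusted p = 0.95) at 18 h, and the doses differed by -1.32 (adjusted p = 0.00121) and -1.14 (adjusted p = 0.00875). At 18 h a second region, at 128410367 to 128410848, was lower with 10 nM by -1.27 (adjusted p = 0.00852), with 2.05, 1.88 and 3.54 CPM beside 6.08, 4.42 and 7.13 in vehicle. It lies close before the region at 335 kb that rose, so neighbours in the desert moved in opposite directions at 18 h.

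Past the end of PVT1, 5 of 25 regions rose and 4 fell with 10 nM at 6 h, and 4 rose and 5 fell at 18 h. Beside these counts stands a background of 16.7% higher and 8.42% lower at 6 h, and 12.8% and 7.56% at 18 h. The region at 129146098 to 129146781, 398 kb after the MYC start, was lower with both doses in steps. At 6 h it held 17.2, 15.8 and 12.5 CPM in vehicle, 6.74, 8.11 and 9.68 with 0.1 nM and 3.47, 3.16 and 3.98 with 10 nM. At 18 h it held 17.2, 11.4 and 15.1, then 6.59, 4.91 and 5.54, then 2.08, 2.37 and 2.33. The 3 groups did not overlap at either time. The 10 nM differences were -2.09 (SE 0.21, adjusted p = 5.68e-07) and -2.70 (SE 0.23, adjusted p = 1.32e-07), the largest fall of the 123 regions at 18 h. For 0.1 nM the differences were -0.89 at 6 h (adjusted p = 0.0301) and -1.35 at 18 h (adjusted p = 0.000805), and the doses differed by -1.20 (adjusted p = 0.000296) and -1.35 (adjusted p = 0.000504). Of these, the 0.1 nM call at 6 h was lost without replicate 1 or 2 of either group (adjusted p up to 0.214). This was the only 1 of the 123 regions that 0.1 nM moved at both times.

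The next region along, 401 kb after the MYC start (129149175 to 129149385), went the other way. It held 0.735, 0.884 and 1.05 CPM in vehicle, 0.975, 1.13 and 0.770 with 0.1 nM and 4.12, 3.74 and 4.10 with 10 nM at 6 h. At 18 h it held 0.733, 0.463 and 0.884 in vehicle, 2.29, 1.66 and 1.85 with 0.1 nM and 3.31, 2.37 and 2.52 with 10 nM. Its rise with 10 nM was 2.15 (adjusted p = 2.47e-05) and 1.99 (adjusted p = 8.6e-05), and the 0.1 nM difference went from 0.09 (adjusted p = 0.997) at 6 h to 1.49 (adjusted p = 0.0103) at 18 h. The latter call was lost without 0.1 nM replicate 1 or vehicle replicate 1 or 2 (adjusted p up to 0.0971 over all alternatives, reached when only the compared groups were fitted).

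A region with a higher base at 129213919 to 129214376, 466 kb after the MYC start, held 9.56, 10.2 and 7.77 CPM in vehicle and 26.6, 31.8 and 29.5 with 10 nM at 6 h, a rise of 1.67 (adjusted p = 1.99e-06). At 18 h the 10 nM libraries held 15.8, 13.4 and 10.2 beside 10.3, 7.56 and 8.49 in vehicle, a rise of 0.59 (adjusted p = 0.0291). Within 10 nM it fell by 1.15 from 6 h to 18 h (the fitted difference was -1.15, adjusted p = 0.00295). A pair of further losses lay here. At 129165068 to 129165916 the 10 nM difference was -0.68 at 6 h (adjusted p = 0.031) and -0.97 at 18 h (adjusted p = 0.00407). Its 6 h call was lost without replicate 1 or 3 of 10 nM or replicate 1 or 2 of vehicle, and with the strongest-region share as a covariate (adjusted p up to 0.261). At 129259822 to 129260059, from 2.13 ± 0.184 CPM in vehicle, the difference was -2.24 at 6 h (adjusted p = 0.00832) and -2.00 at 18 h (adjusted p = 0.0239). Its 18 h call was lost without replicate 1 or 2 of either group (adjusted p up to 0.0975).

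The regions here that 10 nM raised had a lower median level in vehicle than those it lowered. To keep the level apart from the values behind the 6 h call, vehicle libraries of 18 h were used. The 30 regions higher at 6 h had a median of 4.56 CPM per kb there (range 1.65 to 19.2), the 7 lower regions 21.4 (9.83 to 38.3) and the 86 regions without a call 6.48 (1.23 to 63.7). The median width was 458 bp for those higher and 683 bp for those lower. Among the 30 gains, 27 were at least 2-fold, with a median log2 difference of 1.82, and the 7 losses had a median of -1.08. Open regions were found in both groups: the most open lowered region had 38.3 CPM per kb, while the 5 regions above that level had no call for 10 nM against vehicle at 6 h. No test was made over these classes. A region with few counts in vehicle can hardly be called lower, so the call and the vehicle level are linked in advance. The same medians were not computed over all tested regions, so the pattern is not shown to be particular to this stretch.

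**Figure D3:**
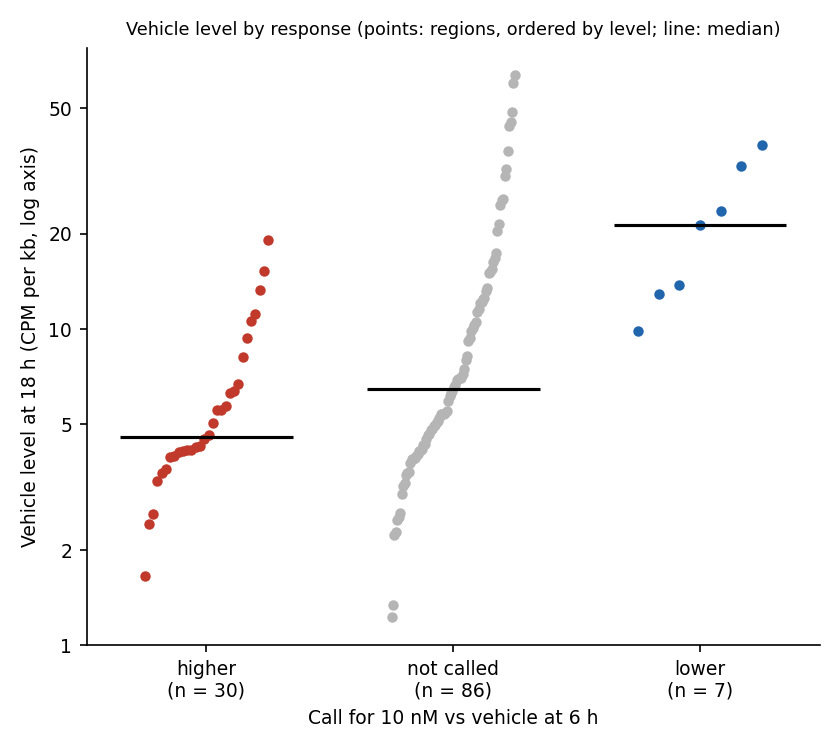
Vehicle level at 18 h (y axis, CPM per kb, log scale) of the regions called higher (30), not called (86) or lower (7) with 10 nM at 6 h; each point is a region and lines are medians. The medians are 4.56, 6.48 and 21.4 CPM per kb, and the highest points, up to 63.7, are among the regions without a call.

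Between the times, direction was kept at 10 nM. Of the regions called, 19 were higher at both times, 7 were lower at both, and none was called in opposite directions. A further 11 were called higher at 6 h alone and 4 at 18 h alone, and 4 were called lower at 18 h alone. All 30 regions higher at 6 h had a positive difference at 18 h, and all 7 lower had a negative one. The overlap between times was not counted over all tested regions, so it is not shown to be particular to this stretch. The test of the change in response between times called none of the 123 and 2 of all 132304 regions, or 0.00151%. At an unadjusted p under 0.05 in that test there were 10 of the 123 and 7371 of all regions. So the regions called at 1 time are not shown to differ in response between times. The vehicle libraries of 18 h and 6 h also gave no call (5 of the 123 and 3796 of all regions at an unadjusted p under 0.05; background 0%).

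The 10 nM libraries of 18 h and 6 h themselves differed at 5 regions, 2 higher and 3 lower at 18 h, beside a background of 1.25% called, 0.112% higher and 1.13% lower. That count was 8 without 10 nM replicate 1 of 18 h, 2 without replicate 2 and 3 without replicate 3 of 18 h, and 2 without replicate 1 or 2 of 6 h. The 3 that were lower were the regions at 75.8 kb and 466 kb described above and a PVT1 region at 129072576 to 129072965. The latter held 5.72, 4.85 and 6.21 CPM with 10 nM at 6 h, beside 1.58, 0.958 and 2.51 in vehicle (rise 1.78, adjusted p = 0.000578), and 1.34, 2.13 and 3.36 at 18 h, beside 2.03, 1.90 and 2.53 (0.02, adjusted p = 0.971). Its difference between times, -1.36 (adjusted p = 0.0467), was lost without any 1 of 5 of the 6 libraries, all but 10 nM replicate 3 of 18 h. One of the 2 that were higher, at 128680907 to 128681465, is described with the doses. The other, 700 kb before MYC (128047379 to 128048318), held 5.96 ± 1.60 CPM with 10 nM at 6 h and at 18 h it held 11.4 ± 2.81 CPM (SD, n = 3), a difference of 0.93 (adjusted p = 0.0415, lost without 4 of the 6 libraries: both 10 nM replicates 1 and 2 of 6 h and 2 and 3 of 18 h).

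**Figure D4:**
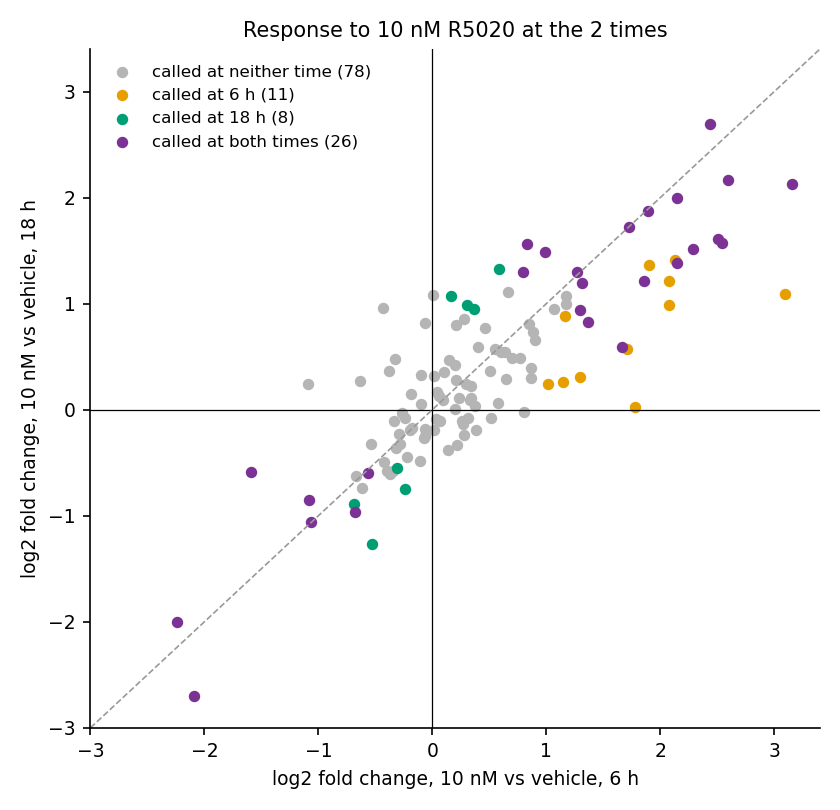
Log2 fold change of the 123 regions for 10 nM against vehicle at 6 h (x axis) and 18 h (y axis); colours give the times at which a region was called, and the dashed line marks equal values. The 26 regions called at both times (19 higher, 7 lower) lie at the upper right and the lower left.

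The 2 doses were compared with each other directly. At 6 h, 28 regions were higher and 6 lower with 10 nM than with 0.1 nM, beside a background of 20.4% called, 15.1% higher and 5.25% lower. At 18 h, 10 were higher and 9 lower, beside 10.9% called, 6.67% higher and 4.22% lower. Of the 30 regions that 10 nM raised over vehicle at 6 h, 24 were also higher than with 0.1 nM, and of the 7 it lowered, 4 were lower than with 0.1 nM. At 18 h this held for 9 of 23 and 7 of 11. Both comparisons use the same 10 nM libraries, so part of this overlap is built in, and its share over all tested regions was not computed. The 18 h gains above 0.1 nM numbered 5 without 0.1 nM replicate 1 and 5 without 0.1 nM replicate 2.

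Some regions separated the doses with the low dose on top. Between MYC and PVT1, the region at 128800999 to 128801365, 53.2 kb after the MYC start and just before the PVT1 start, held 2.94, 4.46 and 4.61 CPM in vehicle, 5.35, 6.62 and 6.38 with 0.1 nM and 2.86, 3.38 and 3.34 with 10 nM at 6 h. At 18 h it held 3.49, 4.32 and 4.89, then 9.02, 6.15 and 6.61, then 2.26, 2.54 and 3.92. All 0.1 nM libraries lay above all vehicle and all 10 nM libraries of their time. The doses differed by -0.93 (adjusted p = 0.00792) and -1.37 (adjusted p = 0.00112), and without 10 nM replicate 1 the adjusted p at 6 h was 0.0528. Neither dose passed the test against vehicle: 0.1 nM was at 0.59 (adjusted p = 0.417) and 0.79 (adjusted p = 0.102), and 10 nM at -0.34 (adjusted p = 0.344) and -0.57 (adjusted p = 0.12).

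The region 66.8 kb before MYC (128680907 to 128681465) rose with both doses at 18 h and was not called at 6 h. At 6 h it held 3.68, 4.09 and 4.61 CPM in vehicle, 5.11, 5.19 and 4.29 with 0.1 nM and 4.50, 3.83 and 5.50 with 10 nM. At 18 h it held 5.35, 3.45 and 4.60 in vehicle, 18.7, 12.2 and 9.24 with 0.1 nM and 9.80, 8.75 and 9.60 with 10 nM. Its rise at 18 h was 1.59 with 0.1 nM (SE 0.24, adjusted p = 0.000643) and 1.07 with 10 nM (adjusted p = 0.00281), and the doses did not differ beyond their spread (-0.52, adjusted p = 0.182). The difference between 18 h and 6 h within 10 nM, 1.02 (adjusted p = 0.0345), was lost without any 1 of the 6 libraries (adjusted p up to 0.212). The region at 128047379 to 128048318 was the third that 0.1 nM raised at 18 h, by 0.92 (adjusted p = 0.0348), where 10 nM raised it by 1.56 (adjusted p = 5.27e-05). The 0.1 nM call was lost without any 1 of the 6 libraries but 0.1 nM replicate 3 (adjusted p up to 0.181).

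A region inside PVT1 at 128903770 to 128904465 was the only 1 that 0.1 nM raised at 6 h. It held 2.42, 4.09 and 4.53 CPM in vehicle, 6.35, 9.54 and 6.89 with 0.1 nM and 5.53, 6.28 and 5.68 with 10 nM. Its rise of 1.01 (adjusted p = 0.0411) was lost without any 1 of the 6 libraries but vehicle replicate 3 (adjusted p up to 0.26). The very open PVT1 region at 128961571 to 128962437, 214 kb after the MYC start, separated the doses with 10 nM on top. It held 40.8 ± 7.20 CPM in vehicle, 36.4 ± 5.98 with 0.1 nM and 57.8 ± 5.30 with 10 nM at 6 h, and 42.2 ± 4.40, 31.0 ± 3.31 and 54.3 ± 13.4 at 18 h. The doses differed by 0.67 (adjusted p = 0.0278) and 0.81 (adjusted p = 0.0164), while the 10 nM difference from vehicle was 0.50 (adjusted p = 0.0884) and 0.37 (adjusted p = 0.243).

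In all, 77 of the 123 regions were called in no comparison of a dose with vehicle, and the matching share over all tested regions was not computed. Among the 122 other regions here, those most like the MYC start region in log2 CPM over the 18 libraries were its neighbours. These lay 1.57 kb before it (Pearson r = 0.84) and over the MYC body (r = 0.78). Next came the open PVT1 region at 128882482 to 128883478 (r = 0.77). Among 70234 regions elsewhere, the closest were at 191878202 to 191879455 on chromosome 2 (r = 0.94), 19404515 to 19405046 on chromosome 9 (r = 0.94) and 48555511 to 48557081 on chromosome 17 (r = 0.93). How many regions elsewhere had a higher r than the neighbours was not counted. The 18 libraries have depth and the strongest-region share in common, so the likeness is given as a description.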

How the data were processed

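One table of raw counts, regions by libraries and not normalized, was deposited by the authors. The submitters' processing notes name BWA and MACS2 and build hg19. Versions, read filters, Tn5 shifts and the merging of regions are not given in the sources at hand. Coordinates are printed as the table gives them, and gene positions come from the rule that set the window. Columns were matched to samples by title. All 132604 regions entered edgeR 4.0.16 (R 4.3.3). filterByExpr (minimum count 10, minimum total 15) kept 132304 and left out 300. TMM scaling and the quasi-likelihood test followed, in 1 fit of 18 libraries (1 mean for each group, 12 residual degrees of freedom), and adjusted p-values are Benjamini-Hochberg over all 132304. CPM are counts as parts of 1000000 of TMM-scaled totals, and log2 differences come from the fit. Libraries of a group differed by more than counting noise (chi-square per degree of freedom 3.28 to 27.8). Each was treated as 1 replicate, though this spread does not show that they stem from separate cultures.

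Named regions are those within 2 kb of MYC, the PVT1 start, the 6 largest called rises and falls per dose against vehicle and 4 per other comparison (mean log2 CPM at least 0), the 5 highest per kb, and the 3 most like the MYC start here and elsewhere (elsewhere, mean log2 CPM at least 1). Runs of successive calls were also listed. A region named for 1 comparison is given for the others too. Its alternatives were run only for the comparisons that named it, or for all dose comparisons near MYC and at the PVT1 start. Other calls had no such check. Among them are the 18 h calls against vehicle at 128662327, 128295560, 128831619, 128879316 and 129213919, and the calls between doses at 128961571. Whether these calls hold under the alternatives is not known. Members and lists were chosen with earlier results of these data known. Same-numbered libraries deviated together for 10 nM against 0.1 nM at 18 h (r = 0.60, 0.19 and 0.45) and for vehicle between times (0.32, 0.12 and 0.45), all over the limit of 0.1, which is a pairing seen in the data and not stated in the labels. A replicate block there left counts within 1.5-fold. The scripts were tested on simulated data. Alternatives were other size factors, no filter, DESeq2 1.42.0, a replicate block, the strongest-region share as a covariate, the compared groups alone, stricter thresholds, a window wider or narrower by 100 kb, and each library left out.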

Additional observations from a re-analysis of the deposited data

How the results depend on the processing

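With 10 nM against vehicle, gains in the window numbered 22 to 35 at 6 h and 18 to 28 at 18 h under every alternative run, never more than 1.5-fold from 30 and 23, and leaving out single libraries gave 25 to 30 and 18 to 25. Losses moved more. At 6 h they were 11 with a replicate block and 14 with the strongest-region share as a covariate, and 4 to 7 with a library left out. At 18 h they were 4 at an adjusted p under 0.01, 4 with a log2 fold of at least 1 as well, 17 with the covariate, 5 when the compared groups were fitted alone, and 4 to 10 with a library left out. For 10 nM against 0.1 nM at 6 h, gains stayed at 22 to 31 with a library left out, and losses were 3 with the log2 fold of 1, 11 with the block, 10 with the covariate and 5 to 6 with a library left out. At 18 h gains were 6 at the 0.01 threshold, 4 in the compared groups alone and 5 to 11 with a library left out, and losses were 14, 4 and 6 to 11 with the covariate, the compared groups alone and a library left out.

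For 0.1 nM at 18 h, gains were 1 at the 0.01 threshold, 13 with the block, 9 with the covariate and 7 with DESeq2. They were 5 without the 2 libraries farthest from their group means (chosen after seeing the data) and 1 to 4 with a library left out. The single loss became 2 with the covariate and 2 in the compared groups alone. At 6 h the gain became 0 at the 0.01 threshold, 3 with the block, 2 with the covariate, 0 in the compared groups alone, 0 without the 2 libraries and 0 to 1 with a library left out. The loss became 0 at the 0.01 threshold, 0 with the log2 fold of 1, 2 with the covariate, 0 in the compared groups alone, 0 without the 2 libraries and 0 to 1 with a library left out. Between times at 10 nM there were 2 calls at the 0.01 threshold, 3 with DESeq2 size factors, 8 with the block, 12 with the covariate, 1 in the compared groups alone, 8 without the 2 libraries and 2 to 8 with a library left out. The change of the 10 nM response gave 2 calls with the covariate. In the comparisons where the replicate block moved these counts, at least 1 same-numbered pair had a correlation of deviations under 0.1, so the numbers were not taken to pair the libraries there. For 0.1 nM against vehicle at 18 h the correlations were 0.45, 0.098 and 0.46, with 1 pair just under that limit.

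At the MYC start, 10 nM against vehicle gave 0.488 with the covariate at 6 h and 0.244 at 18 h; the doses differed by 0.617 and 0.328 with it, by 0.327 in the compared groups alone at 6 h, and by -0.0592 at 18 h without the 2 libraries. With a library left out, 10 nM against vehicle was -0.0869 to 0.202 at 6 h and -0.263 to 0.0108 at 18 h, 0.1 nM against vehicle -0.373 to -0.122 and -0.352 to 7.64e-05, and the doses 0.281 to 0.367 and -0.0969 to 0.252. Other regions around the gene starts changed sign in places, and some gained a call. At 128746290 the covariate gave 0.692 (called, adjusted p = 0.00226) and 0.159 for 10 nM, 0.0690 and 0.0204 for 0.1 nM, and 0.623 (called, adjusted p = 0.00338) and 0.139 between doses, at 6 h and 18 h. Between doses at 6 h the value there was 0.0119 with DESeq2 size factors, 0.00834 without the filter, 0.0218 in the compared groups alone, 0.0124 with DESeq2 and 0.0195 without the 2 libraries, which also gave 0.0265 for 10 nM and 0.00701 for 0.1 nM at 6 h. With a library left out, the values at 128746290 were -0.274 to 0.0283 for 10 nM at 6 h and -0.909 (without 10 nM replicate 1, called, adjusted p = 0.0282) to -0.258 at 18 h, -0.255 to 0.00844 and -0.533 to 0.0854 for 0.1 nM at 6 h and 18 h, and -0.0648 to 0.118 and -0.719 to 0.0677 between doses. At 128749311 the covariate gave 0.115 and 0.0293 for 10 nM and 0.0902 between doses at 18 h, and at 128806274 it gave 0.0146 for 10 nM at 6 h. The replicate block called 128806274 lower with 10 nM at 18 h (adjusted p = 0.0213). The causes of these shifts were not tested. A window wider or narrower by 100 kb left each share of called regions inside its 95% binomial interval. Regions near 1 CPM, such as 128890154, rest on few counts per library. Whether depth or the spread between libraries limits the calls was not tested.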
